A study of Mus musculus with 16 samples.

Results

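Human Dicer whose RNase IIIB site was mutated (D1709A) was compared with unmutated human Dicer by small RNA sequencing. The comparison holds 4 of the 16 libraries, 2 labelled KO + RNase IIIB (D1709A) and 2 labelled KO + hsDicer, chosen by these labels. All 4 came from mouse mesenchymal stem cells of strain C57BL/6 with the genotype Dicer -/-, so that both groups lack mouse Dicer and differ in the transfected human construct. The other libraries served as background: 2 of the same Dicer -/- cells given mCherry (KO), 2 of Dicer f/f cells given mCherry (WT), and 2 each of Dicer -/- cells given the RNase IIIA mutant D1320A, the double mutant D1320A/D1709A, the helicase mutant K70A and the PAZ mutant Y971A/Y972A. The labels do not say how many clones the Dicer -/- cells represent, what share of them took up a construct, how much Dicer protein they made, or whether the 2 replicates were separate cultures. The p-values therefore measure the spread between these samples, which may be technical. Since these are bulk samples, fewer transfected cells and less miRNA per cell cannot be told apart.

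Dicer cuts a hairpin precursor (pre-miRNA) into a short duplex of a 5p arm and a 3p arm and sets the terminal loop free. Each of its RNase III domains cuts a different strand: RNase IIIA cuts beside the 3p arm and makes its 5′ end, and RNase IIIB cuts beside the 5p arm and makes its 3′ end. A precursor cut on the 3p strand alone would leave a mature 3p arm and a longer piece in which the 5p arm is still joined to the loop.

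Pieces of this kind of 33 to 40 bases, read in the D1709A libraries, are shown first because the comparison turns on them. The 5p arm is in lower case, the loop in capitals, and each is a deposited read written 5′ to 3′ with T.
miR-31, 34 bases: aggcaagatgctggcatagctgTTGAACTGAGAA
miR-31, 36 bases: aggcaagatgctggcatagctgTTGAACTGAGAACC
miR-193a, 33 bases: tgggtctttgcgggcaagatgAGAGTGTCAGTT
miR-29a, 38 bases: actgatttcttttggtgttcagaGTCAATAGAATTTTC
miR-99b, 38 bases: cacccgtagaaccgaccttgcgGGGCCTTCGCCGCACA
miR-18a, 40 bases: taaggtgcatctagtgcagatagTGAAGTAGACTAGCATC
miR-101b, 35 bases: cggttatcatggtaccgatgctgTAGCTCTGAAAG

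The mature 5p arms whose levels fell are shown by shared seed, the bases 2 to 8 that pair with targets, in capitals. They and the 3p arms below are RefSeq sequences on GRCm38.p6, in which 35 of the 37 arms looked up had an entry.
let-7a-5p: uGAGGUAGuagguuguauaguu
let-7c-5p: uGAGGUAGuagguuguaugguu
let-7i-5p: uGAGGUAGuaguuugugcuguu
miR-30a-5p: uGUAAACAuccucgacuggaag
miR-30e-5p: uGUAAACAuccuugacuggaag
miR-125b-5p: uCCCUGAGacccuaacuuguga
miR-21a-5p: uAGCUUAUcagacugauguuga
miR-31-5p: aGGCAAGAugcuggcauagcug

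The most abundant 3p arms in the D1709A libraries and some that gained rank are shown in the same way.
miR-22-3p: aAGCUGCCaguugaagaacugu
miR-29b-3p: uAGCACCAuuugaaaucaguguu
miR-29a-3p: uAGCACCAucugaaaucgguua
miR-24-3p: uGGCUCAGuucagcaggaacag
miR-193a-3p: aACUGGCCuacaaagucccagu
miR-99b-3p: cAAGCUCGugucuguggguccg
miR-31-3p: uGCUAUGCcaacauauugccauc
miR-18a-3p: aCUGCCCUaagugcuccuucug

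The files list each read and its count. The D1709A libraries held 13708859 and 13125623 reads and the human Dicer libraries 15144742 and 20096330, given here and below as replicate 1 and replicate 2. Reads were 41 nt long in every replicate 1 and 51 nt in every replicate 2, so that values are also read within a replicate number. Levels are CPM, the reads of an arm scaled to all inserts of 15 nt or more in its library. miRNA reads of 18 to 26 nt made up 7.44% and 3.74% of such inserts with D1709A, and 38.1% and 14.4% with human Dicer. The libraries differed in how many arms they listed. Human Dicer replicate 1 held 181 of 577 arms and replicate 2 held 400, while the D1709A libraries held 240 and 252, so many minor arms stand at 0 in human Dicer replicate 1. In D1709A replicate 1, all 128 abundant non-miRNA fragments of the first K70A library were found, at 0.288% of their level there. KO replicate 1 likewise held all 92 such fragments of the first WT library, at 0.235% of their level there. miR-22-3p, abundant in mesenchymal cells, led each of the 4 libraries. Lists of pluripotent, blood, neuron, muscle, liver and endothelial miRNAs held no arm that passed the test below, where 18 of 540 arms passed. That test compares the groups and does not show whether an arm is present. The liver miRNA miR-122-5p was at 0 in all 4 libraries. With human Dicer, miR-155-5p of the blood list had 1705 and 38.9 CPM, and the endothelial miR-126a-3p had 437 and 58.3 CPM.

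The 5p arms were nearly absent with D1709A. They made up 3.62% and 4.62% of miRNA reads (4.12% ± 0.709, SD, n = 2) against 49.4% and 41.7% with human Dicer (45.6% ± 5.44, SD, n = 2). Both D1709A libraries lay below both human Dicer libraries, by 41.5 percentage points on the mean. The exact permutation test (2-sided) gave p = 0.333, which is the smallest that 2 libraries against 2 can give. No library outside D1709A was below 37.4%. The 5p arms held 97.3% and 96.6% with the RNase IIIA mutant D1320A, 72.7% and 72.6% with the double mutant, and 69.1% and 65.8% in KO. In levels, 5p arms summed to 2691 and 1729 CPM with D1709A and to 188250 and 60186 CPM with human Dicer. KO cells, which were given no Dicer, had 10667 and 1928 CPM of 5p arms, so that the D1709A sums were no higher than these. The 3p arms summed to 71736 and 35711 CPM with D1709A, below the 192534 and 83984 CPM with human Dicer and above the 4773 and 1004 CPM in KO.

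**Figure D1:**
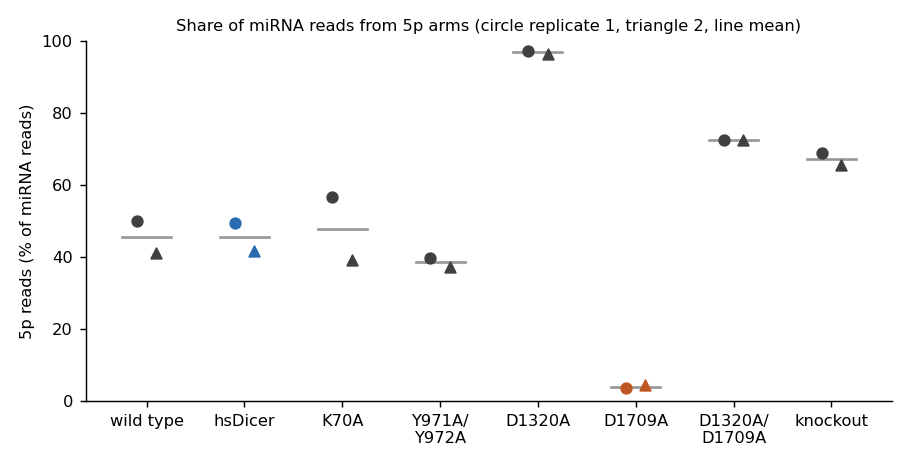
Share of miRNA reads of 18 to 26 nt that come from 5p arms, in percent, with 1 point per library and the groups along the axis. The D1709A libraries sit at 3.62% and 4.62%, below the human Dicer libraries at 49.4% and 41.7%, and the D1320A libraries sit at 97.3% and 96.6%.

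Of 540 arms tested with edgeR's quasi-likelihood test, 18 passed an adjusted p of 0.05, all of them lower with D1709A and all of them 5p arms (3.33% of arms called lower and 0% called higher). The median log2 change was −4.83 over the 278 5p arms and 0 over the 262 3p arms. With arms read in only 1 group set to the bound that 3 reads per library allow, and arms at or under 3 reads in all 4 libraries left out, these medians were −4.47 over 196 arms and −0.98 over 208. TMM factors, which move the median of all arms from −2.20 to −0.41, left 3 calls, all lower. With DESeq2's size factors, which move it to 0, none of the 18 passed: 15 stayed negative, and miR-21a-5p, miR-31-5p and miR-125b-5p stood at 0.65, 0.11 and 0.05. The directions below are therefore those relative to all inserts. Without human Dicer replicate 1 there were 10 calls, without D1709A replicate 1 there were 2 and without D1709A replicate 2 there was 1.

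miR-21a-5p was the most abundant 5p arm with human Dicer. Its hairpin lies at chr11:86584067-86584158 (GRCm38, minus strand) in an exon of Vmp1. It had 56011 and 14247 CPM with human Dicer and 1025 and 702 CPM with D1709A, and the D1709A libraries lay far below. It fell by 5.35 on the log2 scale relative to all inserts (SE 0.93, edgeR quasi-likelihood test, adjusted p = 6.21e-06), where DESeq2's scaling gave 0.65. The KO libraries had 3274 and 817 CPM, so the miR-21a-5p that was left was no more than in cells without Dicer.

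The let-7 family represses growth and pluripotency genes, and 5 of its 10 tested 5p arms passed as lower, beside 18 of all 278. The family's 5p arms summed to 53436 and 10618 CPM with human Dicer and to 301 and 94.6 CPM with D1709A, with a median log2 change of −7.19. The groups did not overlap for any of the 10, where 77 of all 278 5p arms were lower without overlap. let-7c-5p had 18675 and 4336 CPM with human Dicer and 169 and 21.3 CPM with D1709A, and fell by 6.92 on the log2 scale (SE 1.34, edgeR adjusted p = 6.77e-05). let-7a-5p had 5797 and 459 CPM with human Dicer and 5.0 and 1.83 CPM with D1709A, a fall of 9.83 on the log2 scale (SE 2.34, edgeR adjusted p = 0.00247), the largest among the 18. let-7i-5p went from 11882 and 2474 CPM to 39.0 and 21.4 CPM, and let-7b-5p and let-7f-5p also fell. The 3p arms of the same family had no call among 9 tested and summed to 3508 and 680.2 CPM with human Dicer and 1859 and 1027 CPM with D1709A, so that the groups overlapped. Most of this was let-7d-3p.

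In the miR-30 family, which has roles in differentiation and autophagy, 3 of 5 5p arms passed as lower, beside 18 of all 278 (median log2 change −7.42). For 4 of the 5 the groups did not overlap and D1709A was lower, beside 77 of all 278. miR-30e-5p had 3796 and 347 CPM with human Dicer and 6.02 and 3.38 CPM with D1709A. miR-30a-5p had 2708 and 461 CPM and then 13.9 and 4.63 CPM, and miR-30d-5p was the third to pass. None of the family's 5 3p arms passed the test. Their sum was 0.347 and 119.8 CPM with human Dicer and 395 and 181 CPM with D1709A, above human Dicer in both replicates although human Dicer replicate 1 held almost none.

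Of the 8 5p arms tested from the miR-99, miR-100, miR-10 and miR-125 families, 3 passed as lower, again beside 18 of 278. They were miR-99b-5p, miR-125a-5p and miR-125b-5p, the last 2 being the vertebrate counterparts of lin-4. For 6 of the 8 the groups did not overlap and D1709A was lower, beside 77 of all 278. miR-125b-5p had 7823 and 1624 CPM with human Dicer and 124 and 34.6 CPM with D1709A. In the miR-23, miR-27 and miR-24 clusters the 5p arm that passed was miR-24-5p, 1 of 5, from 1513 and 2058 CPM to 8.52 and 15.2 CPM. Of these 5, 2 were lower without overlap. miR-27a-5p did not pass, although it went from 323 and 87.5 CPM to 0.781 and 1.26 CPM. The remaining calls were miR-31-5p, miR-26a-5p, miR-28a-5p, and miR-96-5p and miR-183-5p of the sensory organ cluster. miR-31-5p had 4984 and 4816 CPM with human Dicer and 92.0 and 121 CPM with D1709A (log2 change −5.52, SE 1.51, edgeR adjusted p = 0.0111). miR-17-92 and its paralogous clusters, oncogenic in lymphoma, had 10 5p arms tested and these had no call, although their sum was 2389 and 729 CPM with human Dicer and 29.1 and 36.4 CPM with D1709A. The 3 miR-29 5p arms had none either. Of 22 5p arms of miRNAs abundant in mesenchymal cells, 2 passed as lower, miR-21a-5p and miR-31-5p, a share near that of all 5p arms (18 of 278). Among the 22, 9 were lower without overlap, beside 77 of 278.

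**Figure D2:**
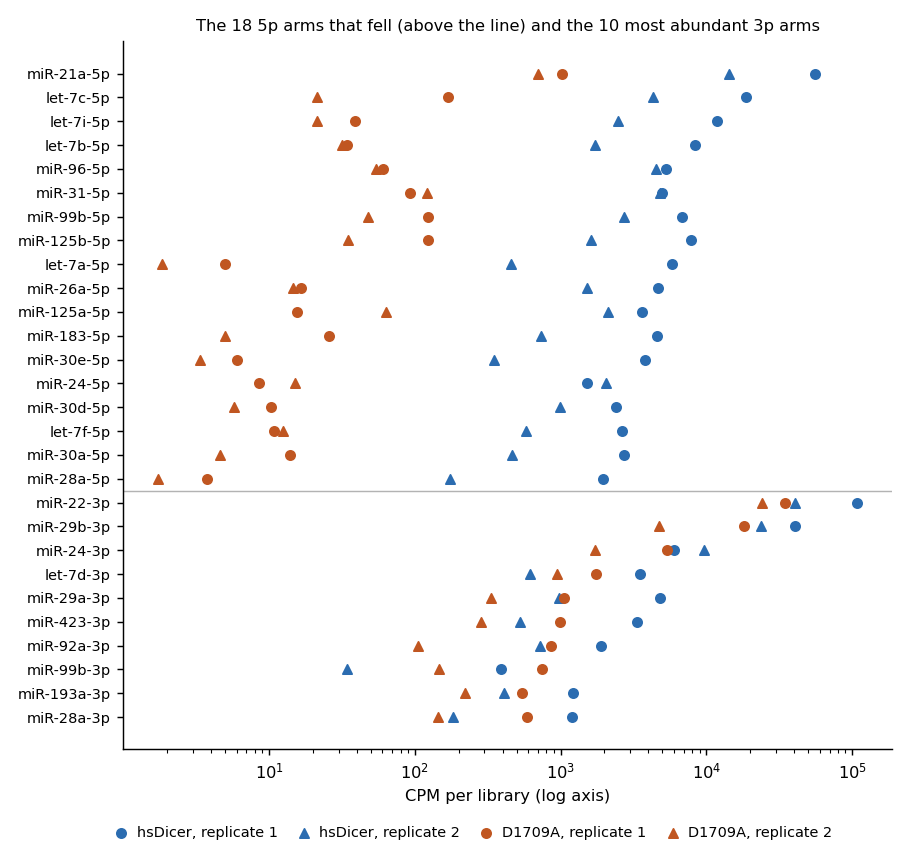
Level in CPM, on a log axis, of named 5p and 3p arms in the 2 human Dicer and 2 D1709A libraries, with 1 point per library. The 5p arms that passed the test sit far lower with D1709A, such as let-7a-5p at 5.0 and 1.83 CPM against 5797 and 459 CPM, while 3p arms lie closer together, such as miR-22-3p at 34855 and 24089 CPM against 108798 and 40472 CPM.

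How much of each arm was left was measured over arms with at least 100 CPM in both WT libraries, a choice that did not use the human Dicer or D1709A values. Over 56 such 5p arms the D1709A level was a median of 0.938% of the human Dicer level in replicate 1 and 1.12% in replicate 2. It was under 10% for 46 and 51 of them, and 1 arm was at 0 in human Dicer replicate 1 and had no such value there. Both D1709A libraries lay below both human Dicer libraries for 46 of the 56, where 18.9% of all 540 arms did so. Over 30 such 3p arms the level left was a median of 44.5% and 32.2%, with 7 and 5 arms under 10%, and miR-23a-3p had no value in replicate 1 for the same reason. Among these 3p arms 11 did not overlap and were lower, and 1 did not overlap and was higher, where 4.81% of all arms did not overlap and were higher. In replicate 1, 8 of the 5p arms stood above 100%, and each of those had at most 1.11 CPM in human Dicer replicate 1. There 8 of the 3p arms stood above 100% too, and 8 3p arms had under 10 CPM in that library, such as miR-25-3p at 0.347 CPM, so that replicate 2 is the firmer of the 3p medians.

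The 5p arms that remained were close to the background in KO: D1709A was above KO for 30 of the 56 in replicate 1 and for 24 in replicate 2. The 3p arms were above KO in 29 of 30 in each replicate. Of 64 5p arms with at least 2000 reads in K70A replicate 1, the D1709A replicate 1 reads were a median of 0.379% of the K70A reads, and 43 lay within 2 times the 0.288% given above for non-miRNA fragments. In replicate 2, where no such fragment share was measured, the median over 61 arms was 0.565% of the K70A reads, and 42 were under 1%. The part of shared reads in the 5p level left, and in the KO level beside it, was not tested. Some 5p arms stood at a higher percentage of human Dicer, here picked after their values were seen. miR-15b-5p had 809.9 and 555 CPM with human Dicer and 95.7 and 45.7 CPM with D1709A, or 11.8% and 8.22%, and did not pass the test (edgeR adjusted p = 0.835). It had 1225 and 473 reads with D1709A and 14 and 1455 in KO, so that KO had more in replicate 2. Reads ending 4 nt past its usual 3′ end in WT were 74.7% and 68.3% with D1709A. They were 99.97% and 5.69% with human Dicer and 71.4% and 81.1% in KO. miR-423-5p was left at 6.17% and 11.6%, with 40.9 and 13.1 CPM beside 6.10 and 7.08 CPM in KO. The usual 3′ end held 0.765% and 94.9% of its reads with D1709A and 65.3% and 53.8% with human Dicer.

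**Figure D3:**
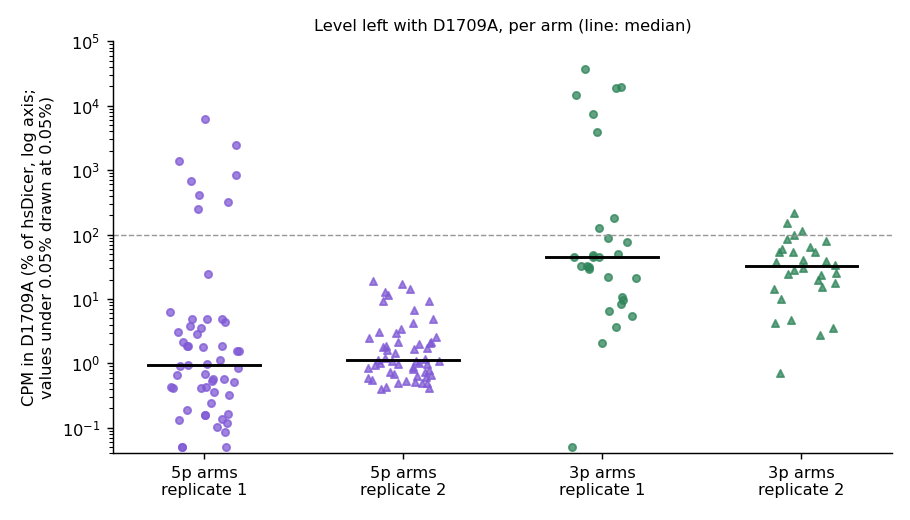
Level left with D1709A, as a percentage of the human Dicer level of the same replicate number on a log axis, for arms with at least 100 CPM in both WT libraries, 5p and 3p arms apart and 1 point per arm. The medians are 0.938% and 1.12% for 56 5p arms and 44.5% and 32.2% for 30 3p arms.

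No 3p arm passed the test, where 4 had an unadjusted p under 0.05. With its own size factors, DESeq2 called 30 arms higher (5.56%) and 5 lower (0.926%), of which 29 and 2 were 3p arms. Some of the higher calls were arms read in 1 D1709A library only and in neither human Dicer library. Examples, picked after their values were seen, are miR-196b-3p (112 and 0 reads with D1709A, log2 change 43.1) and miR-219a-3p (230 and 0, 34.1). limma called 1 3p arm higher, miR-142a-3p, named here after its value was seen. The edgeR fit scales to all inserts, while DESeq2 scales to the arms themselves, so that 3p arms that are lower in CPM can be higher in its terms. The sign of most 3p changes below turns with that choice, and the CPM values are therefore given first.

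miR-22-3p was the most abundant arm with D1709A and with human Dicer. Its hairpin lies at chr11:75463716-75463810 (GRCm38, plus strand) in an exon of Mir22hg. It had 108798 and 40472 CPM with human Dicer and 34855 and 24089 CPM with D1709A, and 2869.6 and 466 CPM in KO. The D1709A libraries were the lower ones, at 32.0% and 59.5% of human Dicer, and the difference did not pass the test (log2 change −1.34, SE 0.59, edgeR adjusted p = 0.341). miR-29b-3p, which targets collagen genes, had 40354 and 23678 CPM with human Dicer and 18134 and 4717 CPM with D1709A, again without overlap and without passing the test. Its seed-mate miR-29a-3p had 4784 and 977 CPM against 1050.0 and 334 CPM, and those groups overlapped. miR-24-3p had 6009 and 9609 CPM against 5392 and 1708.6 CPM. Its partner miR-24-5p, of the same hairpins, was among the 5p arms that fell.

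let-7d-3p had 3508 and 621 CPM with human Dicer and 1747 and 941 CPM with D1709A, so that it was lower in replicate 1 and higher in replicate 2. miR-193a-3p had 1226 and 411 CPM against 546 and 222 CPM. miR-99b-3p had 391 and 34.03 CPM with human Dicer and 748 and 147 CPM with D1709A, higher within each replicate number although the groups overlapped. That arm is the less abundant one of its hairpin in the human Dicer libraries. miR-423-3p, miR-92a-3p and miR-28a-3p completed the 10 most abundant 3p arms with D1709A, at 998 and 284, 860.3 and 105, and 585 and 145 CPM. Among 3p arms that were hardly kept, miR-222-3p had 1701 and 749 CPM with human Dicer and 91.6 and 26.9 CPM with D1709A. miR-221-3p, made from a neighbouring hairpin, had 386 and 342 CPM against 485 and 127 CPM, so that these cluster partners differed (both picked after their values were seen).

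Whether a 3p arm was kept was also set beside the arm that leads its hairpin in WT. In 32 hairpins led by the 3p arm in WT, 3p arms summed to 186821 and 81600 CPM with human Dicer and to 66644 and 33668 CPM with D1709A. In 59 hairpins led by the 5p arm, 3p arms summed to 3238 and 1011 CPM with human Dicer and to 2924 and 1295 CPM with D1709A, and those groups overlapped. Of the 3p arms of 5p-led hairpins, 41 were at 0 in human Dicer replicate 1 and 10 in replicate 2, so their sums rest on few arms.

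Within a library, a rank does not depend on scaling. Over 67 3p arms with 10 CPM or more in both libraries of a group, the median rank among all arms was 40 and 42 with D1709A and 122 and 112 with human Dicer (exact permutation test, 2-sided, p = 0.333, the smallest possible). A 3p arm moves up that list when 5p arms leave it, and an arm could enter the 67 through D1709A alone: 21 of them were at 0 in human Dicer replicate 1, where they tie at rank 74. These ranks are therefore a description. The direction among 3p arms turned with the choice of arms. Among 3p arms alone the 67 had medians of 34 and 34 with D1709A against 49 and 37. In contrast, 39 3p arms chosen by 10 CPM or more in both WT libraries, a choice made after seeing the data, had medians of 29 and 30 against 24 and 20 with human Dicer, and 9 of them gained while 15 lost in both replicates. Among all arms these 39 still stood higher with D1709A, at 33 and 36 against 73 and 57.

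The 8 largest gains with the same direction in both replicates, from the 67 arms and given as values only, were in miR-1198-3p, miR-15b-3p, miR-339-3p, miR-18a-3p, miR-30d-3p, miR-31-3p, miR-181a-3p and miR-19b-3p. Of these, 6 were at 0 in human Dicer replicate 1 and the other two had 1 read there, so that replicate 2 carries the comparison. miR-18a-3p had 0 and 31.9 CPM with human Dicer and 178 and 105 CPM with D1709A, and moved from rank 74 and 51 to 19 and 18. miR-15b-3p had 0 and 16.7 CPM against 161 and 64.6 CPM, and miR-30d-3p had 0.0694 and 21.8 CPM against 139 and 70.5 CPM. All 3 were higher with D1709A without overlap, and none passed the test. miR-31-3p had 0 and 72.3 CPM against 293 and 85.2 CPM, while miR-19b-3p had 88.8 CPM in human Dicer replicate 2 and 80.4 CPM in D1709A replicate 2. The largest losses were in miR-328-3p, from 429 and 174 CPM to 15.6 and 1.26 CPM, and in miR-26b-3p, miR-1964-3p and miR-27a-3p.

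Hairpin by hairpin, the balance of arms was read in 52 hairpins with at least 100 reads in each of the 4 libraries. In 29 of them, which is 55.8%, both D1709A libraries had a lower 5p share than both human Dicer libraries, and in none was it higher. Of 31 hairpins mostly read from the 5p arm with human Dicer, 14 were mostly read from the 3p arm in both D1709A libraries. miR-30a gave 39036 5p and 4 3p reads in human Dicer replicate 1, and 8659 and 991 in replicate 2. With D1709A it gave 178 5p and 1783 3p reads, and 48 and 494, so that the leading arm turned over in both replicates. let-7d went from a 5p share of 43.6% and 47.4% to 1.30% and 0.327%. The hairpins of miR-21a and let-7c stayed near 100% 5p reads, with at most 2 3p reads in a D1709A library, so that in these the arm that was left was still 5p. The test of the 5p to 3p ratio called 0 of 183 hairpins (0%; edgeR, 3 with an unadjusted p under 0.05; median log2 change of the ratio −4.43). limma on log2 ratios called 14 hairpins lower with a pseudocount of 5 reads (7.65%) and 0 with a pseudocount of 0.5.

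The ends of the arms were compared with the usual end in WT. In 27 3p arms with at least 20 reads in each of the 4 libraries, a median of 98.3% and 98.8% of reads began at the usual 5′ end with D1709A, and 99.99% and 95.3% with human Dicer. The groups overlapped (exact permutation test, 2-sided, p = 1). In 31 5p arms, the share of reads that stopped at the usual 3′ end was a median of 47.2% and 63.3% with D1709A and 94.8% and 79.8% with human Dicer. It was lower without overlap in 17 of the 31 and higher in none (exact permutation test on the medians, p = 0.333). The 5p reads left with D1709A were often longer, in examples picked after their values were seen. For miR-31-5p, 47.0% and 27.3% ended 4 nt past the usual end with D1709A, against 0% and 0.229% with human Dicer and 0% and 13.1% in KO. For miR-21a-5p, 68.1% and 77.7% ended 1 nt past it, against 17.7% and 26.2%, and KO had 82.8% and 74.5%.

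Reads that joined the 5p arm to the loop were many with D1709A. They began at the usual 5p start and ran at least 5 nt past the usual 5p end, and made up 7.66% and 9.05% of reads placed on hairpins with D1709A (8.35% ± 0.983, SD, n = 2) against 0.152% and 0.304% with human Dicer (0.228% ± 0.107, SD, n = 2). Most of this was miR-31, without which the means were 1.78% and 0.199%. The exact permutation test (2-sided) gave p = 0.333, the smallest possible. In human Dicer replicate 1, 8333 of the 8400 such reads came from miR-182. The share was 19.9% and 17.7% in KO and 15.7% and 13.4% with the double mutant, where few reads lay on hairpins at all. Levels of these reads were 6231 and 3771 CPM with D1709A and 583 and 441 CPM with human Dicer. KO had 3558 and 795 CPM, the double mutant 1684 and 689 CPM, and Y971A/Y972A 2312 and 579 CPM. In KO replicate 1, miR-106b, miR-30a and miR-350 gave 13401, 12063 and 11272 of the 36760 such reads. These shares and levels need an end read beside 5 or more adapter bases. The counts of product below, reads that end within 2 nt of the base before the 3p arm, where RNase IIIA cuts, also take ends beside 1 to 4 adapter bases, so that they reach longer inserts. D1709A had 73382 and 26928 such reads, of which 62048 and 26928 also met the stricter rule. Human Dicer had 4 and 839, WT 4 and 1309, KO 26 and 544, D1320A 233 and 247, and the double mutant 14 and 409. K70A had 37 and 435 and Y971A/Y972A 7948 and 864, of which 7944 and 530 were miR-31. As a share of reads that ran past the 5p end of hairpins with a usual 3p start, they were 80.4% and 70.7% with D1709A, 6.78% and 9.93% with human Dicer, 25% (4 of 16 reads) and 46.5% in WT, 33.3% and 9.94% with Y971A/Y972A, and at most 7.93% in each library of the other groups. In levels they were 5733 and 2599.8 CPM with D1709A and 0.277 and 44.7 CPM with human Dicer.

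**Figure D4:**
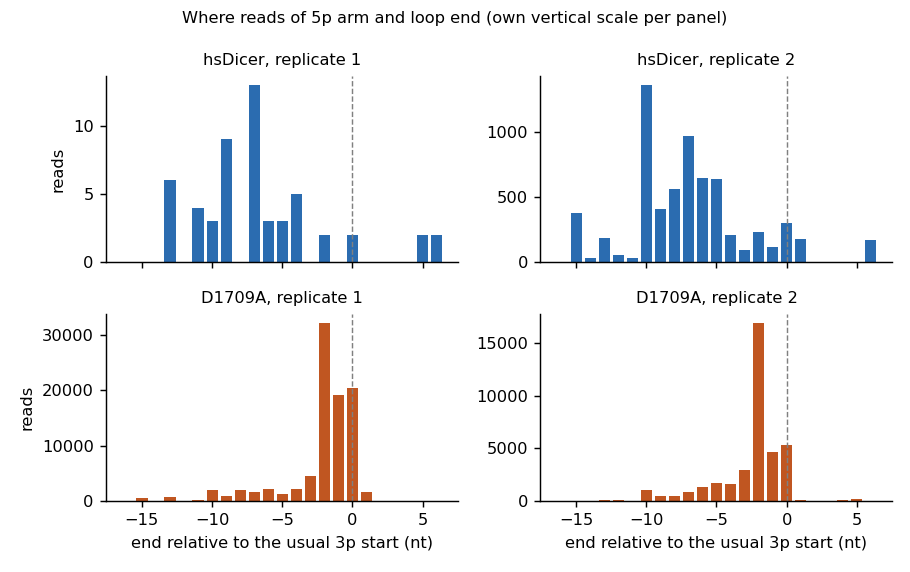
Reads that start at the usual 5p start and run past the usual 5p end, by where they end relative to the base before the 3p arm (nt, 0 is that base), with 1 panel per library, each with its own vertical scale. The D1709A reads gather at and just before 0, with 73382 and 26928 of them within 2 nt, and the human Dicer libraries have 4 and 839 there.

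At least 20 reads ending at the 3p start were seen for 30 and 22 hairpins with D1709A and for 0 and 10 with human Dicer. Taking either D1709A library, these were 41 hairpins, of which 11 reached 20 reads in both. The replicates differed in the insert length they could show, and the part of this in the low overlap was not tested. Inserts were seen to 36 nt in replicate 1 and to 46 nt in replicate 2. Where 1 to 4 adapter bases were enough, they were seen to 40 nt and to 50 nt. Of 40 hairpins whose product would be longer than 40 nt, 1 was seen in replicate 1 and 5 in replicate 2. Over the hairpin copies with such reads, the most frequent end was the base just before the 3p arm in 25, 1 nt before it in 10, 2 nt before it in 4 and 1 nt beyond it in 3.

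miR-31 made most of these reads, and its product is the first sequence shown above. Its hairpin lies at chr4:88910557-88910662 (GRCm38, minus strand) in an exon of AL805899.1 and has a loop of 14 nt. It had 58318 and 22756 product reads with D1709A, 3 and 408 with human Dicer, 54 and 14 with D1320A and 3 and 57 in KO. The 34 nt form held 30761 and 16704 reads, the 35 nt form 14684 and 3134, and the full 36 nt form 11577 and 2802. The product exceeded both mature arms of its hairpin, at 1554 and 2580 reads per 100 reads of miR-31-3p. It was not unique to D1709A: Y971A/Y972A had 7944 and 530 and WT had 3 and 687. Without miR-31, 15064 and 4172 product reads remained with D1709A, and 1 and 431 with human Dicer.

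miR-193a (chr11:79711969-79712034, GRCm38, plus strand) gave the clearest contrast, with 2204 and 996 product reads with D1709A and none in either human Dicer library. With 3 reads per library set in place of 0, this was 827-fold higher in replicate 1 and 602-fold higher in replicate 2. Some products were at 0 in 1 D1709A library and abundant in the other, as given below. These folds are therefore not lower bounds. No library of another group had more than 1 product read of miR-193a. miR-18a, of the miR-17-92 cluster, had 557 and 237 against 0 and 0, or 209-fold and 143-fold higher on the same terms. miR-30d had 138 and 112, and miR-25 had 133 and 79, both against none with human Dicer. miR-29a had 1954 and 387 reads against 0 and 46, miR-99b had 1718 and 364 against 0 and 68, and miR-101b had 375 and 83 against 0 and 16. Per 100 reads of the 3p arm, miR-193a had 31.6 and 43.3 product reads and miR-18a 24.5 and 21.9. The median was 19.4 and 6.31 over those of the 41 hairpins that had reads of the 3p arm in the library. Hairpins without such reads, such as miR-155 and miR-450a, had no value. Of these hairpins, miR-18a, miR-30d, miR-25 and miR-101b were picked after their values were seen.

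Some abundant hairpins had product in 1 replicate only. miR-92a had 1246 and 0 reads with D1709A, miR-143 had 615 and 0, miR-125b had 519 and 0 and miR-20a 357 and 0. miR-93 had 0 and 273. miR-22, whose 3p arm was the most abundant, had only 399 and 0 product reads beside 446156 and 249509 reads of miR-22-3p. Other hairpins among the 10 with the most 5p-loop reads had a different end. miR-21a had 2387 and 1582 5p-loop reads with D1709A, most of them ending 10 nt before the 3p arm, and 9 and 2340 with human Dicer and 5 and 3476 in KO. A further 255 and 0 reads with D1709A, seen beside 1 to 4 adapter bases, ended at the 3p start. The reads of miR-196b ended 5 nt before it, with 630 and 490 against 0 and 320, and those of miR-677 further back, with none at the 3p start for either.

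**Figure D5:**
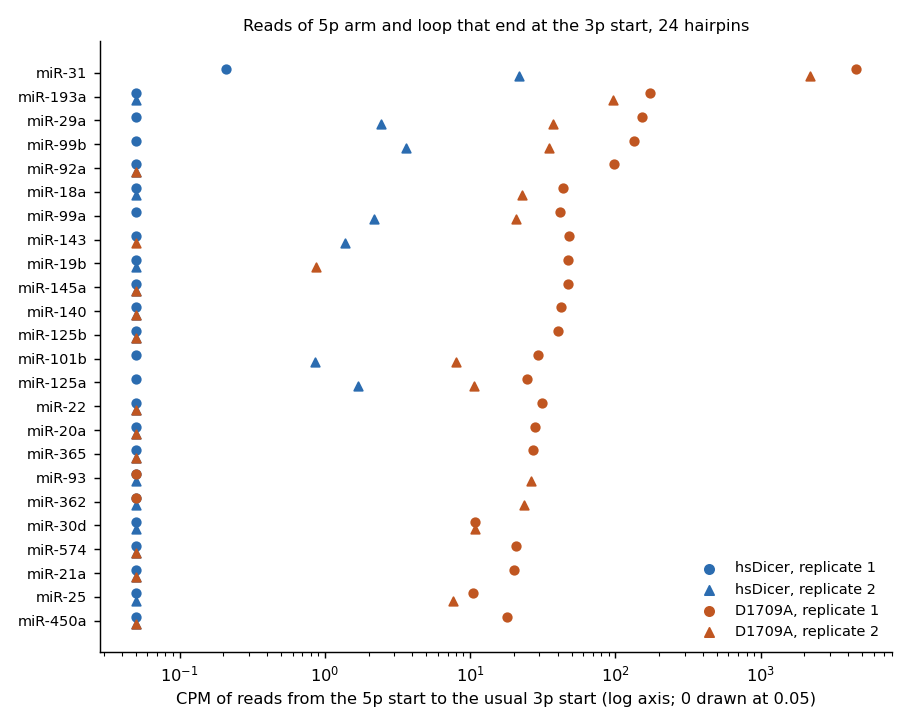
Level in CPM, on a log axis with 0 drawn at 0.05, of reads joining 5p arm and loop that end at the 3p start, for 24 hairpins with 1 point per library. miR-31 leads with 4556 and 2197 CPM in the D1709A libraries against 0.208 and 21.7 CPM with human Dicer, and miR-193a has 172 and 96.2 CPM against none.

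The edgeR test over 5p-loop reads ending anywhere called 0 of 108 hairpins against human Dicer (0%), with 1 at an unadjusted p under 0.05. The spread between replicates in these sparse counts was wide. DESeq2 called 7 higher (6.48%) and limma 1 (0.926%), which was miR-193a (limma adjusted p = 0.00179). Against D1320A, edgeR called 0 (0%, with 0 at an unadjusted p under 0.05), DESeq2 8 (7.41%), and limma 1. A fit over those 4 libraries alone called 2 of 78 (2.56%), miR-31 with a log2 difference of 5.72 (SE 0.81, edgeR adjusted p = 3.77e-09) and miR-193a. Apart from miR-193a, each hairpin that DESeq2 called in either comparison had tested reads in only 1 D1709A library. miR-18a, with 0 and 237 such reads, and miR-574, with 265 and 0, are examples picked after their values were seen. The opposite product, loop joined to the 3p arm, had 364 and 466 reads with D1709A and 11 and 1128 with human Dicer, overlapping, against 152563 and 167514 with D1320A. Its test called 0 of 109 hairpins (0%; edgeR 1 with an unadjusted p under 0.05, DESeq2 0).

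Precursors made without the usual steps were read last. miR-451a, which matures by Argonaute cleavage without Dicer, had 0 reads in all 4 libraries. The capped precursors gave miR-320-3p at 993 and 172 CPM with human Dicer and 107 and 91.2 CPM with D1709A, and miR-484-5p at 438 and 138 CPM and then 21.5 and 12.6 CPM. Both pairs were lower without overlap and neither passed the test. Mirtrons, whose precursors are spliced introns, had 5p arms at 173 and 23.4 CPM with human Dicer and 0 and 0.193 CPM with D1709A. In human Dicer replicate 1 nearly all of this was miR-702-5p, which had 4.15 CPM in replicate 2. No mirtron arm passed the test.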

How the data were processed

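Per the labels' protocols, small RNAs of 15 to 50 nt were cut from a gel and sequenced with a stated 3′ adapter. The authors deposited counts per distinct read sequence, untrimmed and not normalized. Any filter before deposit is not given in the sources used here. Adapters were removed here (12 bases inside a read, 5 or more at its end, minimum insert 15 nt), and those of 18 to 26 nt that matched 1 of 1174 mouse hairpins exactly were kept (GENCODE M21, GRCm38). Reads of differently named hairpins (at most 0.67% of miRNA reads in the 4 libraries) were left out. Arms follow the hairpin midpoint, and usual ends come from WT. Arms whose reads over all libraries reached 20 were tested with edgeR 4.0.16 (R 4.3.3) on all 16 libraries, scaled to inserts and adjusted by Benjamini-Hochberg over all arms. Ratios and loop reads (10 or more reads) were tested likewise, and single values with exact permutation tests. Alternatives used DESeq2 1.42.0 and limma 3.58.1. The edgeR tests of arm levels and of 5p to 3p ratios were run on simulated data, and the other tests were not. Named arms were all called arms, the 10 most abundant 3p arms, the 8 largest rank gains and 4 losses, the 10 hairpins with most 5p-loop reads, and list members; others are said to be picked after their values were seen. Members, lists and tests were chosen with earlier results of these data known. The floors of 3 reads cover the counting error of reads only, not of molecules, since reads carry no molecular identifiers. Same-numbered libraries share read length, and the correlation of their deviations was 0.0833 over 540 arms.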

Additional observations from a re-analysis of the deposited data

Results flagged for a closer look

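Outside the exact matches, 24747 and 9821 reads of the D1709A libraries joined 5p arm and loop, reached the 3p start and then carried 1 or 2 bases that do not match the hairpin. The human Dicer libraries had 1 and 422 such reads. They drew attention as a signal in reads that no comparison above used, higher than in the control libraries. As a share of all such products they were 28.5% and 26.7% with D1709A and 1 of 4 reads and 33.5% with human Dicer, so the share was not higher with D1709A. On miR-31 an unmatched A was seen in 10875 and 4641 reads and an unmatched T in 7948 and 1873.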

How the results depend on the processing

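The number of arms called was 18, all lower 5p arms. It was 3 with TMM factors, 35 with DESeq2 (30 higher and 5 lower), 33 over arms of 10 CPM or more, 37 in 4 libraries with the replicate block, 41 with limma and 51 with limma over arms of 10 CPM or more, the last 3 settings, like each limma fit except those on ratios, being chosen after seeing the data. Leaving out 1 replicate gave 1 to 20. The replicate block gave 24 arms; it kept all 18 and added 6, among them miR-22-3p (log2 change −1.15, edgeR adjusted p = 0.0345), and left the ratio and loop tests at 0. The replicate numbers go with read length, and libraries of replicate 1 also share some non-miRNA fragments. The median of all arms was −2.20, −0.41 with TMM and 0 with DESeq2. With DESeq2 these changes turned positive: miR-125b-5p 0.05, miR-21a-5p 0.65, miR-31-5p 0.11, miR-22-3p 4.54, miR-29b-3p 4.12, miR-24-3p 4.17, let-7d-3p 5.44, miR-29a-3p 3.91, miR-423-3p 4.42, miR-92a-3p 4.26, miR-193a-3p 4.76, miR-28a-3p 5.09, miR-27a-3p 3.67, miR-1964-3p 1.38, miR-26b-3p 0.88, miR-328-3p 0.50, miR-320-3p 3.57 and miR-484-5p 1.84. With TMM these did: miR-22-3p 1.02, miR-29b-3p 0.52, miR-24-3p 0.66, let-7d-3p 1.83, miR-29a-3p 0.23, miR-423-3p 0.71, miR-92a-3p 0.54, miR-193a-3p 1.15, miR-28a-3p 1.36, miR-27a-3p 0.18 and miR-320-3p 0.01. Both scale to the arms. Leaving out replicates, let-7d-3p ran from −1.38 to 1.11, miR-423-3p from −2.78 to 0.29 and miR-28a-3p from −2.25 to 1.01, each positive without human Dicer replicate 1. miR-99b-3p ran from −0.53 to 3.72 and the 5p-loop change of miR-143 from −6.45 to 11.51, both negative without D1709A replicate 1, and the 5p-loop change of miR-125b was −7.01 when reads had to run 10 nt past the arm. For these the cause was not tested. The ratio test went from 0 to 14 with limma at a pseudocount of 5. The 5p-loop test against human Dicer went from 0 to 7 with DESeq2 and 1 with limma, and against D1320A to 8 with DESeq2, 2 in the 2 groups alone and 1 with limma. Leaving out replicates, the difference in 5p share ran from −45.3 to −37.6 percentage points, in 5p-loop share from 7.43 to 8.82, in median rank from −81 to −71, and in usual 5′ ends of 3p arms from −1.41 (without human Dicer replicate 2) to 3.32. Without miR-31 the difference in 5p-loop share was 1.58 points. Ranked among 3p arms alone and chosen by WT level, the median rank difference was 7.5, against −76 for the 67 arms in the whole list, and −30.5 with that choice among all arms. With 2 libraries a group, no single value could pass 0.05.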

Other observations

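Among blood cell miRNAs, miR-155-5p had 1705 and 38.9 CPM with human Dicer and 2.27 and 0.290 CPM with D1709A, and did not pass the test (edgeR adjusted p = 0.101). The muscle miRNA miR-206-3p had 0.139 and 42.1 CPM with human Dicer and 303 and 25.6 CPM with D1709A, overlapping. The pluripotent cell miRNA miR-294-3p had 0 and 15.9 CPM against 59.4 and 14.9 CPM. The 5p arms of these lists summed to at most 11.98 CPM in any of the 4 libraries for neuron, muscle, liver, endothelial and pluripotent cell miRNAs. This does not hold for their 3p arms. The endothelial miR-126a-3p had 437 and 58.3 CPM with human Dicer and 101 and 41.5 CPM with D1709A, overlapping.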
